A study of Homo sapiens with 17 samples.

Results

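The genes described here are 10 genes of the amino acid response, a branch of the integrated stress response: ATF4, DDIT3, TRIB3, ASNS, CHAC1, PSAT1, PHGDH, MTHFD2, CEBPB and CEBPG. They were chosen by symbol, and 10 of the 58870 entries of the deposited count table carried these symbols. All 10 passed the filter on low counts. RNA came from MDA-MB-231, an established human line from a triple-negative breast cancer, grown in RPMI medium with 10% fetal bovine serum. Cells of every group received 45 nM TRAIL, a ligand that can start apoptosis through death receptors, and were collected at 0, 1, 3, 6, 12 or 24 h. This suboptimal dose was meant to keep the observed cells alive, as the protocols in the labels state. There were 3 libraries per time, apart from 1 h with 2, although triplicates are mentioned in the labels (17 in all). All 17 carry the label TRAIL treated, including those at 0 h, and 0 untreated libraries of a later time were analysed. Time with TRAIL and time in culture can therefore not be told apart in any comparison.

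When amino acids run short, or when unfolded protein, viral RNA or haem deficiency is sensed, a kinase phosphorylates the translation factor eIF2α. General translation then slows while the mRNA of ATF4, a basic leucine zipper transcription factor, is translated more efficiently. ATF4 pairs with C/EBP proteins at a composite element and raises genes for amino acid synthesis, transport and tRNA charging, together with the transcription factor CHOP and feedback genes. Because ATF4 is regulated mainly in translation, its mRNA level does not give the amount of ATF4 protein, and protein was not measured here.

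The composite element, the C/EBP-ATF response element, was searched as TGATGNAAN on both strands of RefSeq promoter windows running from 250 bases before to 50 bases after an annotated start (GRCh38.p14). All 10 genes had a window, and 3 of them (ASNS, CHAC1 and CEBPG) held a match, ASNS and CEBPG each in 1 of their 2 windows and CHAC1 in its single window. Over all genes with a window, 1215 of 27305 (4.45%) held one. These windows are shown because they carry the element through which ATF4 and C/EBP partners are known to act. Each is written 5′ to 3′ on the gene's strand in lower case, with the match in capitals. A match describes letters only, and the other 7 genes lacked these letters in this window alone.
ASNS, chr7:97872359-97872658, minus strand, match starting 68 bases before the start site: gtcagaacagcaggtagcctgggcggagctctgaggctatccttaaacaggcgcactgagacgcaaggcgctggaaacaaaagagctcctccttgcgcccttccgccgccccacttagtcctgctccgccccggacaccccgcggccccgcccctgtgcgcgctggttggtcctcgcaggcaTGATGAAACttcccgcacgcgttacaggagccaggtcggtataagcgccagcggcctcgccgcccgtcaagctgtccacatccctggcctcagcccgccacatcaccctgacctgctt
CHAC1, chr15:40953221-40953520, plus strand, match on the opposite strand starting 210 bases before the start site: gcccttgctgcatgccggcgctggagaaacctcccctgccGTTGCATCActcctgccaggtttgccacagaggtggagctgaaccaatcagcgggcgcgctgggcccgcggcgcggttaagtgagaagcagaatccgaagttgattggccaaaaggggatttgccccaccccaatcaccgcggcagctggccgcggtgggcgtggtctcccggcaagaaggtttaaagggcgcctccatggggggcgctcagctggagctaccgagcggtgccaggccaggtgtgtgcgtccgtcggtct
CEBPG, chr19:33373863-33374162, plus strand, match starting 42 bases before the start site: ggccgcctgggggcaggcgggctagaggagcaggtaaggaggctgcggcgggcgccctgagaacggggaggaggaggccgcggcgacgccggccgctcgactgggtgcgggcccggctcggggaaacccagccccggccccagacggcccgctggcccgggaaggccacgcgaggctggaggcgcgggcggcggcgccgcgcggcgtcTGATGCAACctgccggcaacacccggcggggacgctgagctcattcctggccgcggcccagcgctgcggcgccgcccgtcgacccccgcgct

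Total counts ran from 13731520 to 19234924 per library. Markers of the mesenchymal basal B type (VIM, CD44, ZEB1, AXL and SPARC) summed to between 4800 and 4999 CPM (counts scaled to the TMM-adjusted total of the library) at 24 h and to between 5352 and 5755 CPM at other times, although SPARC alone was at most 1.07 CPM. Most of each sum was VIM, which was lower at 24 h than at 0 h, while AXL and ZEB1 were higher. Luminal epithelial markers summed to between 21.8 and 31.5 CPM, nearly all from EPCAM and GATA3. ESR1, PGR and CDH1 were at most 0.148, 0.0622 and 1.01 CPM. Of the leukocyte markers, PTPRC was at most 0.334 CPM and LYZ at most 0.430 CPM, and CD3E was at 0 in every library. Of the endothelial markers, PECAM1 had 2.80 to 3.98 CPM at 24 h and at most 2.28 CPM at other times. VWF was at most 0.333 CPM and CDH5 at most 0.137 CPM. Replicates 2 and 3 at 6 h and at 24 h were closer to each other than any other replicate pair (chi-square per gene of 1.55 and 1.68, against 3.86 to 14.6), and were kept as separate libraries. The dependence of counts on transcript length also varied. Set against the average library, log2 CPM changed per doubling of length by -0.15 to -0.067 at 3 h, 0.016 to 0.12 at 6 h and 0.017 to 0.15 at 24 h. Mitochondrial genes took 5.53% to 8.37% of counts at 0 h and 3.66% to 4.14% at 24 h. Nothing in the labels says that replicates were separate cultures, so p-values measure the spread between these libraries, which may be technical. In bulk RNA, fewer expressing cells and less RNA per cell cannot be told apart.

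At 0 h the 10 genes spanned a wide range of levels. Per kilobase of longest annotated transcript, ATF4 was the highest at 169 ± 11.1 CPM per kb (SD, n = 3), followed by PSAT1 at 67.2 ± 0.747 and ASNS at 41.0 ± 2.00. DDIT3 (19.1 ± 0.999) and CEBPB (18.6 ± 1.95) differed by less than their spread, as did MTHFD2 (13.7 ± 0.518) and TRIB3 (13.7 ± 0.834). CEBPG lay at 14.9 ± 0.248 CPM per kb and CHAC1 at 7.32 ± 1.07. PHGDH was the lowest at 1.70 ± 0.0671 CPM per kb.

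The main pattern was a fall of 9 of the 10 genes between 0 h and 24 h, with PHGDH as the exception. Against 0 h, the level at 24 h had changed by -63.2% in CHAC1, -40.2% in TRIB3, -37.0% in DDIT3, -36.1% in ASNS, -32.7% in ATF4 and in PSAT1, -31.3% in CEBPB, -28.2% in CEBPG and -16.2% in MTHFD2. In each of these 9 genes all 3 libraries at 24 h lay below all 3 at 0 h. The share of all genes separated in this way was not counted. Of all 15365 genes tested, 17.1% were called lower at 24 h and 18% were called higher, where a call is an adjusted p below 0.05 (edgeR quasi-likelihood test, Benjamini-Hochberg adjustment over all genes tested). The median log2 fold change of the 10 genes at 24 h was -0.57, against -0.0017 over all genes tested. Over all 6 times together the same 9 genes were called, against 64.2% of all genes. Scaling by library size alone raised the share of higher calls among all called genes at 24 h from 51.3% to 66.8%. In that fit 3742 of 5602 calls among 15365 genes were higher, and 8 of the 10 genes were called lower.

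**Figure D1:**
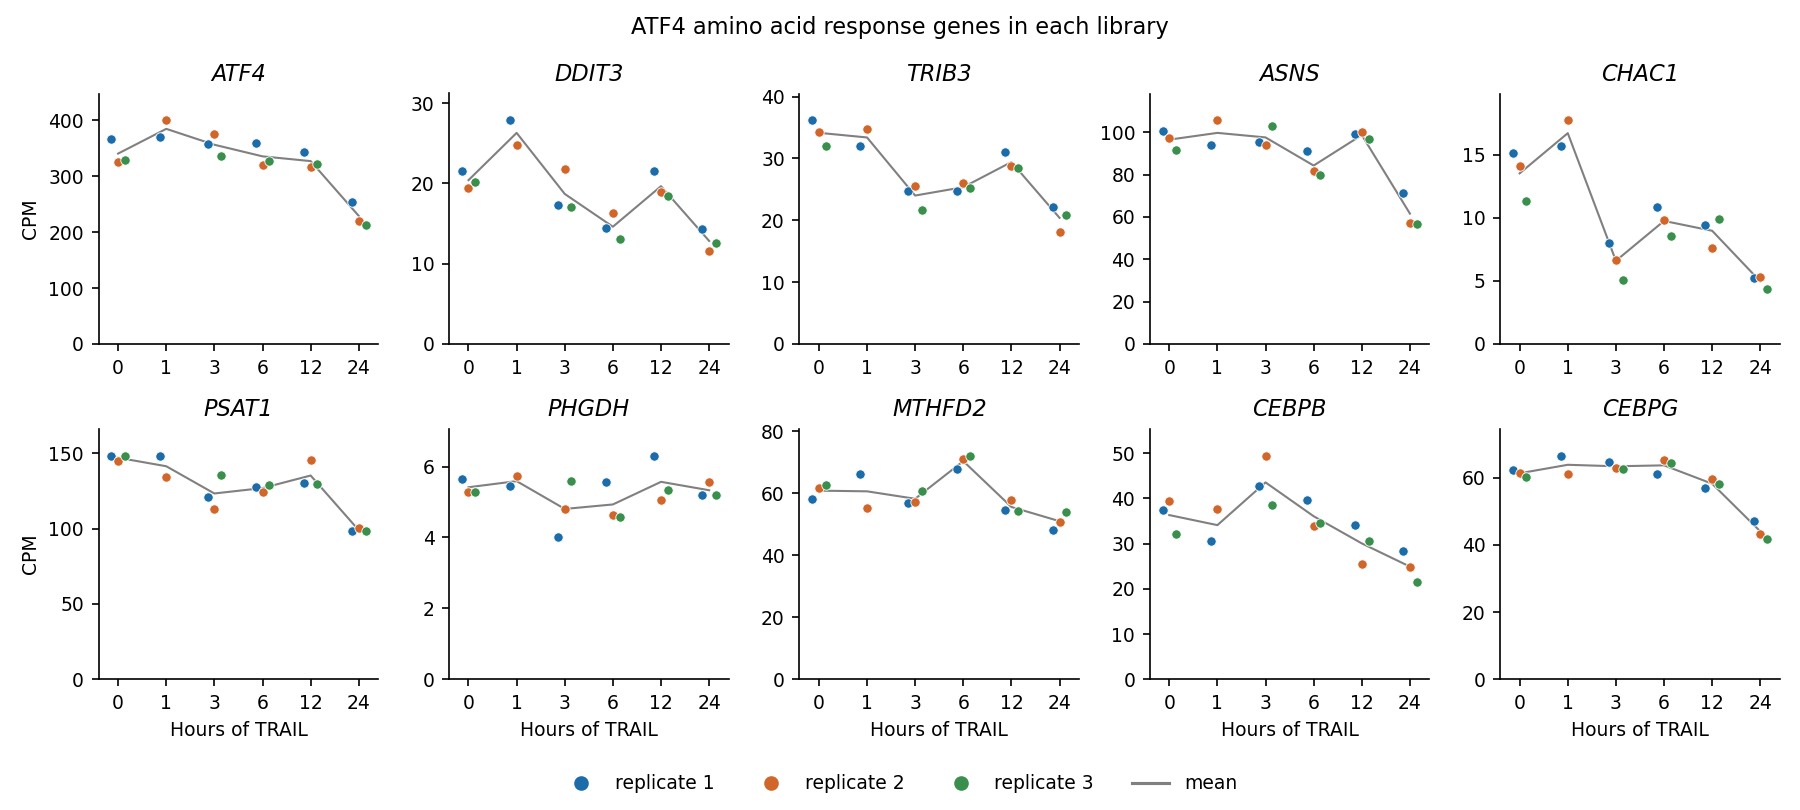
Level of each of the 10 genes in every library (CPM, y axes starting at 0) by time with TRAIL in hours, with 1 point per library, coloured by replicate number, and a line through the mean of each time. The times are spaced evenly, not to scale. The 24 h libraries lie below every 0 h library in 9 panels, and the PHGDH libraries overlap between all times.

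ATF4 itself (ENSG00000128272, chr22:39519695-39522685, plus strand, GENCODE 29 on GRCh38) stood at 367, 326 and 329 CPM at 0 h and at 253, 220 and 214 CPM at 24 h. The 24 h libraries lay below all 14 others. Between those times ATF4 held a narrow band, from 316 CPM (12 h) to 400 CPM (1 h). The log2 fold change at 24 h was -0.57 (SE 0.0712, adjusted p = 1.4e-05). From 12 h to 24 h alone it was -0.51 (adjusted p = 2.3e-04).

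CEBPG (ENSG00000153879, chr19:33373330-33382686, plus strand), a C/EBP protein that forms heterodimers with ATF4, was also not called against 0 h before 24 h. Its 12 h libraries (57.0, 59.6 and 58.1 CPM) nevertheless lay below all those at 0 h. It had 62.3, 61.4 and 60.3 CPM at 0 h and 47.0, 43.3 and 41.8 CPM at 24 h, and stayed between 57.0 and 66.6 CPM at 1, 3, 6 and 12 h. Its log2 fold change at 24 h was -0.48 (SE 0.0600, adjusted p = 1.6e-05), and from 12 h to 24 h it was -0.40 (adjusted p = 4.3e-04).

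CEBPB (ENSG00000172216, chr20:50190734-50192689, plus strand), an inducible C/EBP factor that also serves inflammatory genes, varied more between replicates. It had 37.4, 39.4 and 32.0 CPM at 0 h and 42.6, 49.4 and 38.5 CPM at 3 h, which overlap, and 28.5, 24.8 and 21.4 CPM at 24 h. At 24 h it fell by 0.54 on the log2 scale (SE 0.129, adjusted p = 0.00392). With per-library offsets for transcript length and GC content the fall of CEBPB was smaller, at -0.25 (adjusted p = 0.0149). Non-whole counts stood in 17 of 17 libraries for CEBPB, and likewise for DDIT3 and ASNS, in 14 for MTHFD2 and in 9 for ATF4. They arise where fragments are divided between genes, so these levels are less certain.

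DDIT3 (ENSG00000175197, chr12:57516588-57521737, minus strand) encodes CHOP, a C/EBP-family factor linked to cell death under prolonged stress. It had 21.6, 19.4 and 20.2 CPM at 0 h, 27.9 and 24.7 CPM at 1 h, 17.3, 21.7 and 17.1 CPM at 3 h, 14.5, 16.3 and 13.0 CPM at 6 h, 18.4 to 21.6 CPM at 12 h and 14.4, 11.5 and 12.6 CPM at 24 h. Both 1 h libraries were above all 0 h libraries, but the difference of 0.37 (SE 0.116) was not called (adjusted p = 0.476). The 6 h libraries lay below all 0 h libraries (log2 fold change -0.49, SE 0.110, adjusted p = 0.00294). The 12 h libraries were back within or near the 0 h range, and the rise since 6 h was 0.43 (adjusted p = 0.00916). The call did not hold when 6 h replicate 3 (0.35, adjusted p = 0.0663) or 12 h replicate 1 (0.35, adjusted p = 0.0525) was left out. The log2 fold change of DDIT3 at 24 h was -0.67 (SE 0.111, adjusted p = 2.2e-04). DDIT3 has the shortest longest transcript of the 10 genes (1067 bases). With length and GC offsets its change was -0.28 at 6 h (adjusted p = 0.0321) and -0.46 at 24 h (adjusted p = 0.00137).

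CHOP is known to raise TNFRSF10B, the gene of the TRAIL receptor DR5. TNFRSF10B was singled out here after its values were seen. Its libraries had 116, 129 and 119 CPM at 0 h, 137, 141 and 139 CPM at 3 h, 157, 160 and 167 CPM at 6 h, 131, 146 and 130 CPM at 12 h and 167, 174 and 168 CPM at 24 h. From 3 h on, all libraries lay above those at 0 h. TNFRSF10B was called higher at 3 h (0.20, adjusted p = 0.0203), at 6 h (0.41, SE 0.0569, adjusted p = 4.3e-05) and at 24 h (0.49, SE 0.0569, adjusted p = 6.7e-06), and was not called at 12 h (adjusted p = 0.0632). Its 3 h call was lost without 0 h replicate 1 (0.17), 0 h replicate 3 (0.19) or 3 h replicate 2 (0.19), and with library size only (0.13, adjusted p = 0.149). DDIT3 was called lower at 6 h and 24 h and was not called at 3 h or 12 h. Whether the 2 genes are linked in these cells was not tested, and CHOP protein was not measured.

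TRIB3 (ENSG00000101255, chr20:362835-397559, plus strand) encodes a pseudokinase that is induced by ATF4 and CHOP and dampens their activity. It had 36.1, 34.3 and 32.0 CPM at 0 h, 24.8, 25.5 and 21.7 CPM at 3 h, 24.7, 26.1 and 25.3 CPM at 6 h, 31.0, 28.7 and 28.5 CPM at 12 h and 22.2, 18.2 and 20.8 CPM at 24 h. All libraries at 3, 6, 12 and 24 h were below all those at 0 h. The log2 fold change was -0.51 at 3 h (SE 0.0845, adjusted p = 3.9e-04), -0.43 at 6 h (SE 0.0826, adjusted p = 8.9e-04) and -0.74 at 24 h (SE 0.0844, adjusted p = 5.2e-06). At 12 h it was -0.22 and was not called (adjusted p = 0.0857).

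CHAC1 (ENSG00000128965, chr15:40952962-40956519, plus strand), a γ-glutamylcyclotransferase that breaks down glutathione, moved the most of the 10 genes at 3, 12 and 24 h. It had 15.1, 14.1 and 11.3 CPM at 0 h, 15.7 and 17.7 CPM at 1 h, 8.01, 6.68 and 5.09 CPM at 3 h, 10.9, 9.82 and 8.58 CPM at 6 h, 9.46, 7.58 and 9.88 CPM at 12 h and 5.21, 5.33 and 4.34 CPM at 24 h. From 3 h on, every library was below the lowest at 0 h. Its log2 fold change was -1.04 at 3 h (SE 0.155, adjusted p = 1.3e-04) and -1.44 at 24 h (SE 0.157, adjusted p = 3.4e-06), and between 3 h and 6 h it rose by 0.56 (adjusted p = 0.00774). Without the 3 h replicate 3 the rise from 3 h to 6 h was 0.40 (adjusted p = 0.0567). Its log2 fold changes at 6 h (-0.48, adjusted p = 0.0173) and 12 h (-0.60, adjusted p = 0.0106) rested on single libraries. The 6 h call of CHAC1 was lost without 0 h replicate 1 (-0.39, adjusted p = 0.0941), 0 h replicate 2 (-0.44, adjusted p = 0.0561) or 6 h replicate 3 (-0.39, adjusted p = 0.0987), and with length and GC offsets (-0.28, adjusted p = 0.0613). The 12 h call was lost without 0 h replicate 1 (-0.52, adjusted p = 0.0583) or 12 h replicate 2 (-0.48, adjusted p = 0.0766).

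ASNS (ENSG00000070669, chr7:97852118-97872542, minus strand) encodes asparagine synthetase, the enzyme that makes asparagine from aspartate and glutamine and a standard reporter of the amino acid response. It had 101, 97.4 and 91.5 CPM at 0 h, 99.2, 100 and 96.6 CPM at 12 h and 71.2, 57.1 and 56.5 CPM at 24 h. The levels at 0 h and 12 h overlapped and those at 24 h stood below every other library. The log2 fold change was -0.65 from 0 h to 24 h (SE 0.0806, adjusted p = 1.4e-05) and -0.68 from 12 h to 24 h (adjusted p = 6.2e-05). The 24 h replicate 1, whose length slope was near 0, was the highest of the 24 h libraries. With that library alone at 24 h, ASNS changed by -0.45. With length and GC offsets over all libraries, ASNS changed by -0.61 (adjusted p = 2.2e-07).

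Within the serine branch, PSAT1 and MTHFD2 fell at 24 h and PHGDH was not called. PHGDH (ENSG00000092621, chr1:119648411-119744226, plus strand), which catalyses the first step of serine synthesis from glycolysis, had at most 101 counts in a library. It stood at 5.66, 5.29 and 5.29 CPM at 0 h and at 5.21, 5.58 and 5.20 CPM at 24 h, and was not called in any of the 11 comparisons. PSAT1 (ENSG00000135069, chr9:78297143-78330093, plus strand), the aminotransferase of the following step, had 148, 145 and 148 CPM at 0 h and 98.3, 100 and 98.1 CPM at 24 h. This is a log2 fold change of -0.57 (SE 0.0646, adjusted p = 4.8e-06). PSAT1 was also lower at 3 h (121, 113 and 136 CPM, log2 fold change -0.25, adjusted p = 0.0107) and at 6 h (128, 124 and 129 CPM, -0.21, adjusted p = 0.0174). The 3 h call of PSAT1 was lost without 3 h replicate 2 (-0.20, adjusted p = 0.0631) and its 6 h call without 6 h replicate 2 (-0.20, adjusted p = 0.0704).

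MTHFD2 (ENSG00000065911, chr2:74198562-74217565, plus strand), a mitochondrial folate enzyme that carries serine-derived one-carbon units, was highest at 6 h. It had 58.3, 61.7 and 62.7 CPM at 0 h, 68.0, 71.1 and 72.2 CPM at 6 h, 54.7, 57.9 and 54.2 CPM at 12 h and 48.2, 50.9 and 54.0 CPM at 24 h. Its 6 h libraries were the highest of all 17. MTHFD2 was higher at 6 h by 0.21 (SE 0.0679, adjusted p = 0.0249), lower at 12 h than at 6 h (-0.34, adjusted p = 0.00158) and lower at 24 h than at 0 h (-0.26, SE 0.0691, adjusted p = 0.00772). The 6 h call of MTHFD2 was lost without 0 h replicate 1 (0.18, adjusted p = 0.104), 6 h replicate 2 (0.20, adjusted p = 0.0753) or 6 h replicate 3 (0.19, adjusted p = 0.0959), and with length and GC offsets (0.11, adjusted p = 0.0990). The 24 h call was lost when libraries were scaled by total count alone (-0.18, adjusted p = 0.0731).

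**Figure D2:**
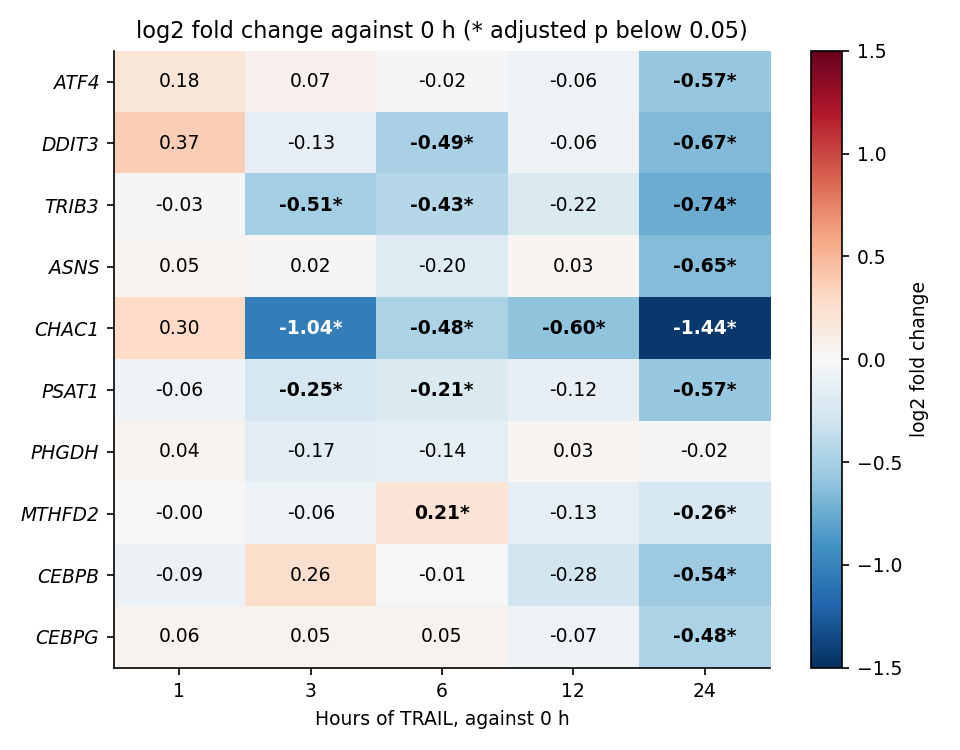
Heat map of the log2 fold change against 0 h for each of the 10 genes (rows) at 1, 3, 6, 12 and 24 h (columns), blue for lower and red for higher, with an asterisk where the adjusted p is below 0.05. CHAC1 holds the lowest values at 3 h (-1.04) and 24 h (-1.44), and 9 genes are called lower at 24 h.

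Time by time, no early induction passed the test. At 1 h, 0 of the 10 genes were called in either direction by edgeR, DESeq2 or limma-voom, and 2 (ATF4 and DDIT3, both higher) had an unadjusted p below 0.05. Among all genes 0.26% were called higher at 1 h and 0.0521% lower. The 1 h libraries of ATF4 had 370 and 400 CPM, a difference from 0 h of 0.18 (adjusted p = 0.941), and those of CHAC1 differed by 0.30 (adjusted p = 0.969). At 3 h, 3 genes were called lower (CHAC1, TRIB3 and PSAT1) and 0 higher, against 8.71% and 9.04% of all genes. At 6 h, 4 were called lower (DDIT3, CHAC1, TRIB3 and PSAT1) and 1 higher (MTHFD2), against 13.2% and 16.9% of all genes. At 12 h, CHAC1 alone was called lower and 0 genes were called higher, against 6.48% and 5.96%.

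Between consecutive times, calls in both directions occurred from 3 h to 6 h and from 6 h to 12 h. From 1 h to 3 h, 3 genes fell, against 2.56% of all genes. These were CHAC1 (-1.34, adjusted p = 4.2e-05), DDIT3 (-0.49, adjusted p = 0.0167) and TRIB3 (-0.48, adjusted p = 0.00391). The DDIT3 fall was lost without 1 h replicate 1 (-0.41, adjusted p = 0.231), 3 h replicate 1 (-0.44, adjusted p = 0.0783) or 3 h replicate 3 (-0.43, adjusted p = 0.0530), and that of TRIB3 without 1 h replicate 2 (-0.41, adjusted p = 0.0665). Where a 1 h library was left out, the other was taken to vary as the other groups did.

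From 3 h to 6 h CHAC1 and MTHFD2 (0.27, adjusted p = 0.00347) were called higher, and DDIT3 (-0.36, adjusted p = 0.0142) and ASNS (-0.21, adjusted p = 0.0376) lower, against 22.9% and 20.3% of all genes. With length and GC offsets the DDIT3 change was -0.028 (adjusted p = 0.850) and that of MTHFD2 was 0.12 (adjusted p = 0.0528). The DDIT3 call was also lost without 3 h replicate 2 (-0.24, adjusted p = 0.109) or 6 h replicate 3 (-0.28, adjusted p = 0.0871). From 6 h to 12 h DDIT3 and ASNS (0.23, adjusted p = 0.0462) were called higher and MTHFD2 lower, against 8.7% and 11.9% of all genes. Each ASNS step was lost on leaving out any of several libraries. For the fall these were 3 h replicates 1 and 3 and 6 h replicates 2 and 3, with changes from -0.23 to -0.18. For the rise they were every library at 0 h and 12 h, 3 h replicate 1 and 6 h replicates 2 and 3.

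From 12 h to 24 h, 7 of the 10 genes fell, against 5.6% of all genes. Besides ATF4, CEBPG and ASNS these were CHAC1 (-0.85, adjusted p = 0.00319), DDIT3 (-0.61, adjusted p = 0.00219), TRIB3 (-0.53, adjusted p = 8.7e-04) and PSAT1 (-0.45, adjusted p = 3.2e-04). With 6 h and 24 h reduced to replicate 1, 0 of these 7 were called, where 31 of all 15727 genes tested were called in either direction, with changes such as -0.37 for ATF4 (adjusted p = 0.139) and -0.47 for ASNS (adjusted p = 0.0564). Against 3 h, 8 genes were called lower at 24 h, compared with 26.8% of all genes, and against 6 h, 8 were called lower, compared with 12.1%. The uncalled genes were CHAC1 and PHGDH against 3 h and DDIT3 and PHGDH against 6 h. Against 3 h, the TRIB3 call (-0.23, adjusted p = 0.0310) was lost without 3 h replicate 1 (-0.21), 3 h replicate 2 (-0.19), 24 h replicate 2 (-0.16) or 24 h replicate 3 (-0.25), and with length and GC offsets (-0.052). With those offsets the DDIT3 change against 3 h was -0.20 (adjusted p = 0.107), from -0.54. The MTHFD2 call against 3 h (-0.19, adjusted p = 0.0254) was lost without 3 h replicate 3 (-0.17), 24 h replicate 1 (-0.15) or 24 h replicate 2 (-0.19), whereas with length and GC offsets it was -0.37 (adjusted p = 4.4e-06). Against 6 h, the TRIB3 call (-0.31, adjusted p = 0.0118) was lost without 24 h replicate 2 (-0.24, adjusted p = 0.0794). Scaling by library size alone shifted the median of all genes from 3 h to 24 h by 0.14, and MTHFD2 was then at -0.048, TRIB3 at -0.090 and PSAT1 at -0.18 (adjusted p = 0.0457), from -0.32. These comparisons share their 24 h libraries.

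The fall at 24 h was set beside the library properties that moved with time. With length and GC offsets all 9 genes remained called, with log2 fold changes from -1.20 (CHAC1) to -0.25 (CEBPB). In that fit 5270 of all 15365 genes were called at 24 h, 2665 of them higher. With 6 h and 24 h each reduced to replicate 1, an alternative chosen after seeing the data, 6 genes were called lower at 24 h, against 2.14% of all genes in that fit. These were CHAC1 (-1.38), TRIB3 (-0.63), PSAT1 (-0.59), ASNS (-0.45), ATF4 (-0.44) and CEBPG (-0.39). DDIT3 (-0.51, adjusted p = 0.0715), CEBPB (-0.36, adjusted p = 0.273) and MTHFD2 (-0.34, adjusted p = 0.0766) were not called there. That fit takes the lone library to vary as the other groups do. The mitochondrial share was also lower at 24 h, as was VIM (3253 to 3469 CPM at 0 h, 2495 to 2805 CPM at 24 h). VIM made up most of the summed basal B markers. AXL (682 to 758 CPM at 0 h, 875 to 966 CPM at 24 h) and ZEB1 (40.5 to 46.6, then 47.5 to 63.0 CPM) were higher. The part of the mitochondrial share and of VIM in these results was not tested.

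**Figure D3:**
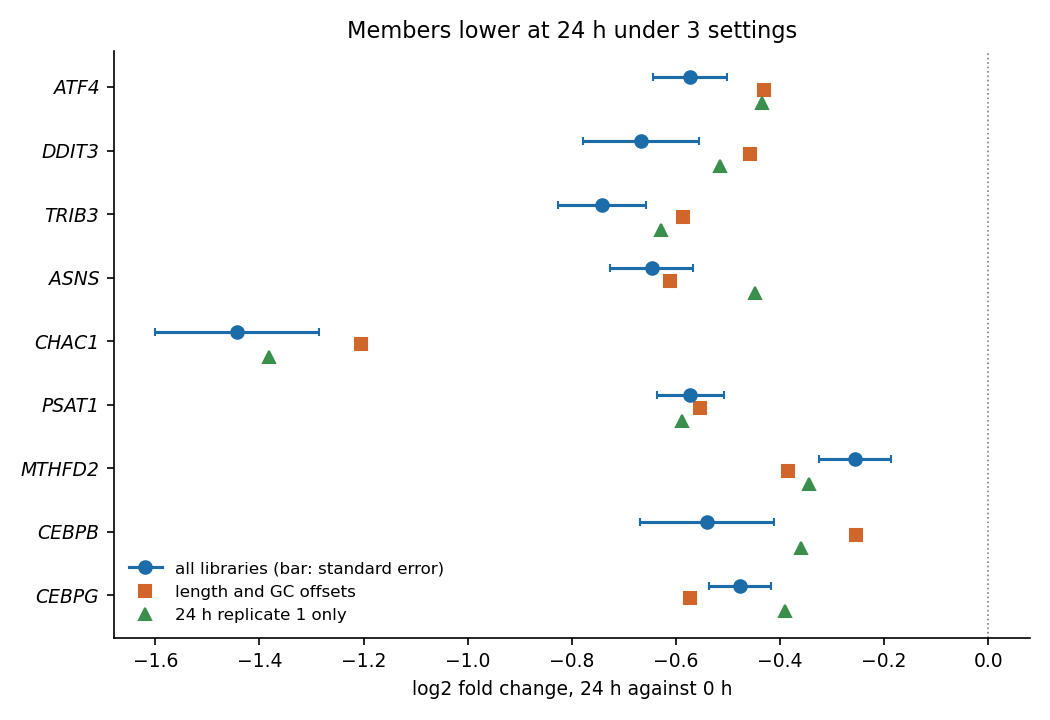
Log2 fold change at 24 h against 0 h for the 9 genes called there, with all libraries (circles, bars of 1 standard error), with length and GC offsets (squares) and with 6 h and 24 h reduced to replicate 1 (triangles). All values are below 0, and the CHAC1 values, from -1.44 to -1.20, are the lowest.

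Upstream of ATF4, the list of eIF2α kinases and phosphatase subunits also held EIF2S1, the gene of eIF2α itself. The list had 3 of 8 genes called higher and 1 called lower at 24 h, against 18% and 17.1% of all genes. Its median log2 fold change was 0.12. With length and GC offsets the counts were 2 and 1 and the median was 0.014, where 2665 of 5270 calls among all 15365 genes were higher. PPP1R15A (GADD34), the stress-induced subunit that returns eIF2α to its unphosphorylated state, had 206, 208 and 194 CPM at 0 h, 297 and 315 CPM at 1 h, 144, 140 and 144 CPM at 12 h and 137, 124 and 131 CPM at 24 h. PPP1R15A rose at 1 h (0.60, SE 0.0637, adjusted p = 1.5e-05) and was lower at 24 h (-0.63, SE 0.0587, adjusted p = 5.0e-07), with no overlap at either time. EIF2AK3, the kinase PERK that senses unfolded protein, went from 8.80 ± 1.07 CPM at 0 h to 16.1 ± 1.26 CPM at 24 h (SD, n = 3 each, log2 fold change 0.87, adjusted p = 5.7e-04). EIF2AK4, the kinase GCN2 that senses uncharged tRNA, was higher at 6 h (0.44, adjusted p = 1.0e-04).

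Among 8 tested related transcription factors, there were 2 higher calls and 1 lower call at 1 h, where 0.26% and 0.0521% of all genes were called. At 24 h there were 1 and 4, where 18% and 17.1% of all genes were called. ATF3, a stress-induced partner and target of ATF4, had 9.15, 11.6 and 10.3 CPM at 0 h, 23.0 and 23.1 CPM at 1 h and 7.90, 7.06 and 7.81 CPM at 24 h. ATF3 rose at 1 h by 1.15 (SE 0.110, adjusted p = 3.8e-06) and was lower at 24 h (-0.45, adjusted p = 0.00462). NUPR1, a small stress-induced chromatin protein, went from 5.54 ± 0.915 CPM at 0 h to 2.36 ± 0.245 CPM at 24 h (SD, n = 3 each, log2 fold change -1.23, adjusted p = 5.6e-05). FOS, a subunit of AP-1, was lowest at 3 h (log2 fold change -1.85, adjusted p = 6.0e-08), with 43.1 ± 7.44 CPM at 6 h (SD, n = 3) against 44.0 ± 7.55 CPM at 0 h (n = 3). It had 14.8 ± 1.10 CPM at 12 h and 21.2 ± 2.00 CPM at 24 h (SD, n = 3 each), with all these libraries below those at 0 h. CEBPA was too low to be tested.

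Other amino acid and stress outputs of ATF4 had 2 of 14 tested genes called higher and 6 called lower at 24 h (18% and 17.1% of all genes), with a median log2 fold change of -0.21. DDIT4 (REDD1), an inhibitor of mTORC1, was lower at 1 h (-1.07, SE 0.0825, adjusted p = 5.6e-07) and higher at 24 h (0.67, adjusted p = 1.4e-06). NDRG1, a stress-responsive gene, was lower at 6 h (-1.05, adjusted p = 9.7e-07). EIF4EBP1, which encodes a repressor of cap-dependent translation, was lower at 24 h (-0.76, adjusted p = 8.1e-06), or -0.36 with length and GC offsets. CBS was at 0 in every library.

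Of 8 serine and one-carbon enzymes beside the members, 3 were called lower and 0 higher at 24 h (median -0.12), beside 17.1% and 18% of all genes. With library size only, 1 was lower and 1 higher (median -0.050), where 3742 of 5602 calls among all 15365 genes were higher. With 6 h and 24 h reduced to replicate 1, the median of these enzymes was -0.11. PSPH, which completes serine synthesis, was lower at 3 h (-0.48, adjusted p = 5.7e-04). SHMT1, a serine-glycine interconverting enzyme, was lower at 6 h (-0.31, adjusted p = 0.00218) and TYMS, thymidylate synthase, at 12 h (-0.28, adjusted p = 0.00495). Of 10 amino acid transporters, 4 rose and 1 fell at 6 h, where 16.9% and 13.2% of all genes did so. Upper-quartile scaling or length and GC offsets gave 3 and 2 transporters. Among all genes, 1888 of 4935 calls were higher with that scaling and 2646 of 4567 with the offsets. At 24 h, 2 were higher and 3 lower, near the 18% and 17.1% of all genes, and the median was -0.048, or 0.027 with library size only.

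SLC7A5, which exchanges glutamine for large neutral amino acids, had 381, 407 and 371 CPM at 0 h, 619, 649 and 645 CPM at 6 h and 362, 399 and 382 CPM at 24 h. It rose at 6 h (0.72, SE 0.0565, adjusted p = 3.8e-08) and its 24 h libraries overlapped those at 0 h. SLC43A1, another transporter of large neutral amino acids, was lower at 24 h (-0.65, adjusted p = 1.2e-04), and SLC1A4, a transporter of small neutral amino acids, at 3 h (-0.54, adjusted p = 0.00329).

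Of 13 aminoacyl-tRNA synthetase and tRNA export genes, 1 was called higher and 5 lower at 24 h (median -0.11), where all genes had shares of 18% and 17.1%. That count turned to 3 higher and 1 lower with library size only, where 3742 of the 5602 calls among all 15365 genes were higher. EPRS, the glutamyl-prolyl-tRNA synthetase, was higher at 24 h (0.34, adjusted p = 0.00162), or 0.19 with length and GC offsets. TARS, the threonyl-tRNA synthetase, was lower at 24 h (-0.28, adjusted p = 8.3e-04). IARS, the isoleucyl-tRNA synthetase, was higher at 6 h (0.32, adjusted p = 0.0199), a call lost without 0 h replicate 1 (0.24), 6 h replicate 2 (0.29) or 6 h replicate 3 (0.26).

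Of 12 endoplasmic reticulum genes that depend mainly on other stress sensors, 6 were called higher and 2 lower at 24 h (median 0.18), set against 18% and 17.1% of all genes. SEL1L, an adaptor of protein degradation from the endoplasmic reticulum, was higher at 24 h (0.63, adjusted p = 0.00440, or 0.39 with length and GC offsets). EDEM1, which marks misfolded glycoproteins, was higher there as well (0.42, adjusted p = 9.4e-04, or 0.25 with offsets). SDF2L1, a chaperone cofactor, was lower at 6 h (-0.42, adjusted p = 0.0102), and with offsets was at -0.099 and not called. Whether these lists differ from the 10 genes was not tested. With 6 h and 24 h reduced to replicate 1, EIF2AK4 and SHMT1 at 6 h, EPRS, TARS, SEL1L and EDEM1 at 24 h, and IARS and SDF2L1 at 6 h were not called.

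**Figure D4:**
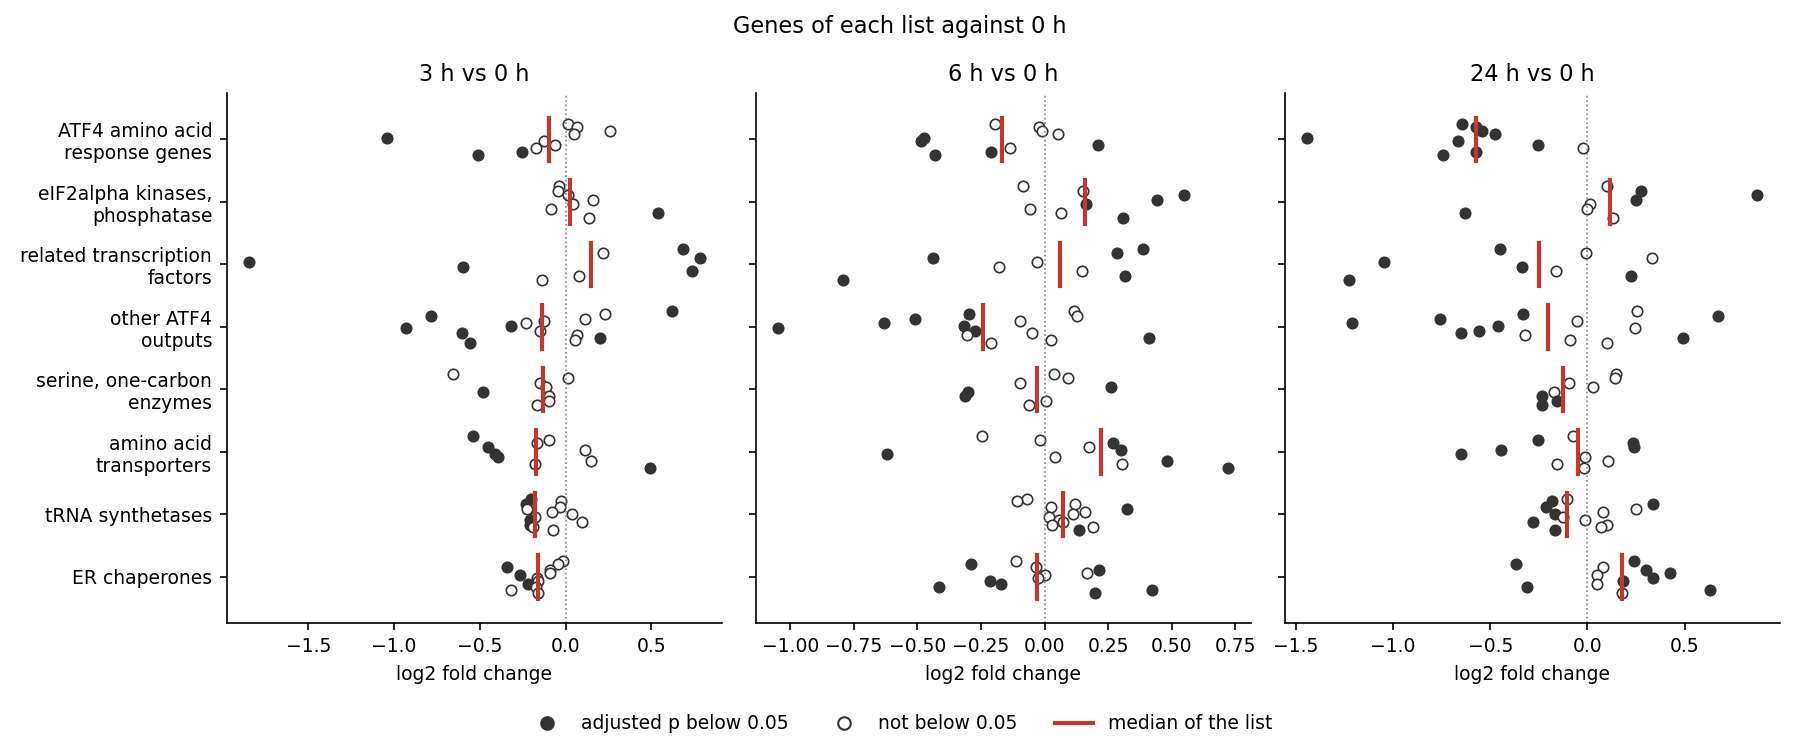
Log2 fold change against 0 h at 3, 6 and 24 h (panels) for the 10 genes and every tested gene of each pathway list (rows), with 1 point per gene, filled where the adjusted p is below 0.05, and a red bar at the list's median. At 24 h the 10 genes have a median of -0.57, and the medians of the other lists lie between -0.25 and 0.18.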

How the data were processed

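The authors deposited 1 table of gene-level expected counts from RSEM, per the file name, neither scaled to depth nor to length. Cutadapt 1.18, STAR 2.7.0f and hg38 are named in the submitters' processing notes. The RSEM version and the annotation release are not given in the sources used here. Libraries were stranded poly(A) paired-end, per the labels' protocols. Non-whole values made up 10.8% of the expected counts the authors deposited, and all were rounded. Of 58870 entries, 58597 matched GENCODE 29 with the version ignored, which gave positions and transcript lengths, and 0 columns lacked a sample. In edgeR 4.0.16 under R 4.3.3, low genes were removed with filterByExpr, TMM set the scaling, and 1 robust quasi-likelihood fit gave each time its own mean over 17 libraries. A call is an adjusted p below 0.05 (Benjamini-Hochberg over 15365 genes). There were 11 comparisons between times. The test was checked on simulated data. Promoter sequences are from RefSeq (GRCh38.p14).

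The 10 genes and all lists were chosen with earlier results of these data known. All 10 are named. From each other list, the text names the 3 genes with the largest change against 0 h that passed the test and averaged at least 2 in log2 CPM. TNFRSF10B, from the list of other ATF4 outputs, was named outside this rule after its values were seen. The genes most like ASNS are the 5 with the highest correlation that averaged at least 3 in log2 CPM. Alternatives were RLE, upper-quartile and no composition scaling, 2 other filters, DESeq2 1.42.0, limma-voom (limma 3.58.1), fits of 2 groups, the replicate block, length and GC offsets, both together, unrounded counts, averaged close pairs, and each library left out. The reduction of 6 h and 24 h to replicate 1 was added after seeing the data.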

Additional observations from a re-analysis of the deposited data

How the results depend on the processing

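Of 51 calls of the 10 genes over 11 comparisons, 33 held in each of the 30 alternatives listed at the outset, 17 in all 31, and 0 reversed. Of the 9 calls at 24 h against 0 h, 8 held in the first 30. The cause of the changes below was not tested, except that the averaged and reduced fits hold fewer libraries. With upper-quartile scaling, 0 genes were higher at 6 h against 0 h. With length and GC offsets, alone or with the replicate block, 2 were higher at 6 h, 4 lower at 12 h, 1 higher from 1 h to 3 h, 0 lower from 3 h to 6 h and 2 lower from 6 h to 12 h. With no filter, 2 were lower at 12 h, 1 higher from 1 h to 3 h and 2 lower from 6 h to 12 h. With library size only, 1 was lower from 3 h to 6 h. With the close pairs averaged, 0 were higher and 2 lower at 6 h, 1 lower from 3 h to 6 h and 1 higher from 6 h to 12 h. With 6 h and 24 h reduced to replicate 1, fewer of the 10 genes were called at these times, as were fewer of all genes. Their median log2 fold change against 0 h was then -0.053 at 6 h and -0.44 at 24 h. Calls over all genes moved between the other fits too. At 6 h, 2602 of 15365 genes were higher in the main fit and 1888 with upper-quartile scaling. The number was 2646 with length and GC offsets and 1439 of 15292 with the close pairs averaged. At 12 h against 0 h, 995 genes were lower and 916 higher in the main fit. With length and GC offsets alone 2459 were called there, 1185 of them higher. The counts above are therefore not results about the 10 genes alone.

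With each library left out in turn, lower counts ran from 2 to 3 at 3 h, 3 to 5 at 6 h, 0 to 1 at 12 h and 9 to 9 at 24 h against 0 h, and the higher count at 6 h from 0 to 1. Between consecutive times, lower counts ran from 2 to 3 (1 h to 3 h), 0 to 2 (3 h to 6 h), 1 to 1 (6 h to 12 h) and 7 to 7 (12 h to 24 h), and higher counts from 1 to 2 (3 h to 6 h) and 0 to 2 (6 h to 12 h). At 24 h lower counts ran from 6 to 9 against 3 h and 7 to 8 against 6 h. In these fits, calls among all genes in either direction moved as well. Against 0 h they ran from 1412 to 3029 at 3 h and 2663 to 4970 at 6 h. At later times they ran from 724 to 2147 (12 h) and 3444 to 5798 (24 h). Between consecutive times they ran from 271 to 975 (1 h to 3 h) and 5023 to 6846 (3 h to 6 h). Later steps had 1803 to 3476 (6 h to 12 h) and 583 to 2789 (12 h to 24 h). Scaling moved the share of higher calls among all genes at 3 h from 50.9% to 29.8% and at 12 h from 47.9% to 58.7% (library size only), and at 6 h from 56.2% to 38.3% (upper quartile).

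Replicate numbers were shared between times. With the replicate block, 9 of the 10 genes were called over all times, as without it, and 0 of the 51 calls were lost. Same-numbered libraries correlated over 0.1 in 19 of 40 pairs (r from -0.56 to 0.60), and 8 of 17 libraries correlated best with their own number, so the numbers were not taken to pair them. Expected counts of 54 to 101 for PHGDH and 65 to 266 for CHAC1 limit their precision.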

Other observations

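Over the 17 libraries, ATF4 and CEBPG had a Pearson correlation of log2 CPM of 0.92, ATF4 and ASNS of 0.91, and TRIB3 and CHAC1 of 0.89, while PHGDH reached at most 0.25 with any of the other 9 genes. These are descriptions, since libraries of the same time share a treatment and a length trend.

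The 5 genes outside the set whose levels most resembled ASNS over the 17 libraries were VIM (r of 0.94), SMARCE1, MRPL3, TAF9 (0.93 each) and NPM1 (0.92). All 5 were called lower at 24 h than at 0 h, where 17.1% of all genes were. They were picked for likeness to ASNS in these same libraries, so a fall at 24 h was favoured by the choice. The amounts were smaller than for ASNS: -0.36 for VIM, -0.23 for SMARCE1, -0.22 for MRPL3, -0.30 for TAF9 and -0.29 for NPM1, against -0.65 for ASNS. Among the other 9 genes of the set, the correlation with ASNS ran from 0.91 (ATF4) and 0.83 (CEBPG) to 0.11 (PHGDH).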
